A study of Mus musculus with 6 samples.

Results

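Tbx4-positive cells were selected on raw single-cell RNA counts from mouse embryos at E10.5, taken from tissue dissected around the forming heart. A barcode, which stands for a captured cell, was a member when it held at least 2 molecules of Tbx4. It also had to hold fewer than 3 of Dlx1 and Dlx2 together, fewer than 3 of Epcam, fewer than 2 of Wt1 and fewer than 5 of Tnnt2. These upper limits set aside arch crest mesenchyme, epithelium, mesothelium and heart muscle. Molecules were counted by unique molecular identifiers (UMIs), and a barcode passed when 2500 or more genes were detected in it and no more than 10% of its UMIs were mitochondrial. Of 35962 passing barcodes, 761 were members (2.12%, exact 95% binomial interval 1.97% to 2.27%), out of 53362 barcodes in all. Members were thus chosen by the measured counts of these 6 genes, whose levels are given as a description only.

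All embryos were C57BL/6 and wild type, and all sires had normal blood glucose. The labels give 3 samples from dams pretreated with vehicle and 3 from dams pretreated with streptozotocin, a toxin of insulin-producing cells that raises blood glucose. They do not say how many embryos entered a library, and the dissected region also held non-cardiac mesoderm, ectoderm and endoderm. Barcodes ended in a number from 1 to 6 that separates 6 libraries, and no source used here pairs that number with a sample or a treatment. The matrix therefore counted as 1 sample: no test was possible, treatments were not compared, and intervals cover counting error only.

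Tbx4 is a T-box transcription factor best known from the hindlimb and, with its close relative Tbx5, from the mesenchyme around the lung buds and trachea. There the forkhead factor Foxf1 responds to Hedgehog protein from the foregut epithelium, and mesenchymal Wnt2 and Fgf10 signal back to that epithelium. Tlx1 is a homeobox factor needed for the spleen that is also expressed in pharyngeal tissue. Dkk1 and Dkk2 are secreted modulators of Wnt signalling. Hox genes record position along the body axis, with higher paralog numbers farther back.

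The 6 libraries held between 200462921 and 248426458 UMIs each. Members had a median of 31214 UMIs and 6279 detected genes, close to the 32838 UMIs and 6202 genes of the other passing barcodes. Their barcode sequence recurred in another library for 34 of 761 members and for 2890 of all passing barcodes. Of these members, 3 shared it with another passing barcode and 0 with another member. Xist, a noncoding RNA of the inactive X chromosome, stood at 551 CPM (UMIs of a gene in every 1000000 UMIs) in members of library 1 and at most 0.333 CPM in the others. The Y-linked gene Uty was at 0 CPM in members of library 1 and at 70.3 to 82.3 CPM in the others. Hemoglobin RNA summed to 78.8 to 163 CPM in members of libraries 1 to 5 and to 4469 CPM in library 6, where it was 86.1 CPM without 2 members rich in blood RNA.

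Members were found in every library, and least often in libraries 1 and 2. Libraries 1 to 6 held 76, 91, 181, 121, 135 and 157 members, which were 1.18%, 1.52%, 3.69%, 2.13%, 1.89% and 2.71% of their passing barcodes. The interval of library 3 (3.18% to 4.26%) lay above those of all the others, and that of library 1 (0.931% to 1.47%) lay below those of libraries 3 to 6. Within the same upper limits, barcodes with at least 2 Foxf1 UMIs numbered 496 and 438 in libraries 1 and 2 and between 640 and 1306 in libraries 3 to 6. Of these Foxf1-positive barcodes, 2.02% and 2.28% were members in libraries 1 and 2, against 16.6%, 8.55%, 8.27% and 13.3% in libraries 3 to 6. The intervals of the first 2 libraries (0.971% to 3.68% and 1.10% to 4.16%) lay below all the rest. Among all barcodes within these limits, with or without Foxf1, 2.48% and 3.18% were members in libraries 1 and 2. In libraries 3 to 6 that share was 3.65% to 7.54%.

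**Figure D1:**
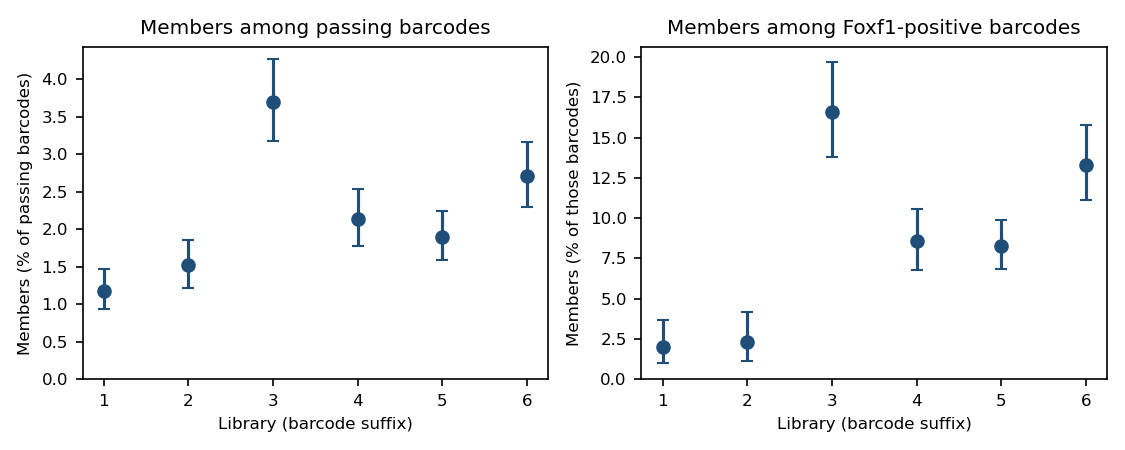
Share of members in each of the 6 libraries, as a percentage of passing barcodes (left) and of barcodes with at least 2 Foxf1 UMIs within the same upper limits (right), with exact 95% binomial intervals. Libraries 1 and 2 are lowest in both panels, at 2.02% and 2.28% on the right.

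Cells just outside the Tbx4 threshold looked like those just inside it. Within the other limits, 854 barcodes held 1 Tbx4 UMI and 345 held 2. Foxf1 was at 172 CPM in the first and 194 CPM in the second, against 62.2 CPM in the 16194 barcodes with no Tbx4. Tbx5 was at 72.6, 101 and 12.3 CPM in the same order, and Tlx1 at 63.5, 60.8 and 23.2 CPM. Both neighbours of the threshold lay well above the cells without Tbx4.

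The working name of these cells, foregut mesenchyme, was set beside its markers. Clustering the members gave 4 subgroups, of 166, 192, 160 and 243 cells. A marker was counted when at least 10% of a subgroup's cells held it, at 2-fold or more the level in non-members. Of 24 foregut and lung mesenchyme markers, Tbx4 left out, 17 were counted in subgroup 3 and 14 in subgroup 4, against 3 in subgroup 1 and 5 in subgroup 2. Of 13 markers of the posterior second heart field, the mesoderm behind the heart tube, 9 and 8 were counted in subgroups 3 and 4, and 1 and 0 in subgroups 1 and 2. Among all 27973 detected genes, between 1.27% and 2.10% were counted in a subgroup. These counts describe the subgroups and test nothing, since the same genes shaped the clusters and the lists were chosen with earlier results known. Both lists hold Tbx5, Wnt2, Foxf1, Osr1 and Gata4, and they did not separate the names for subgroups 3 and 4. Summed without Tbx4, the foregut list stood at 657, 885, 3822 and 2163 CPM in subgroups 1 to 4 and at 745 CPM in the other passing barcodes. Subgroups 3 and 4, with 403 cells, are called Foxf1-rich, and subgroups 1 and 2, with 358 cells, are called by number. Tbx4, which the rule used, stood at 82.6, 99.8, 109 and 105 CPM in subgroups 1 to 4, lowest in subgroup 1.

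The division fell along libraries. Subgroup 3 had 0 and 2 cells in libraries 1 and 2 and 36, 32, 39 and 51 in libraries 3 to 6. Subgroup 4 had 4 and 0 cells in libraries 1 and 2 and 73, 41, 67 and 58 in libraries 3 to 6. Subgroups 1 and 2 held 72 of 76 members in library 1 and 89 of 91 in library 2, but also 29 to 72 members in each of libraries 3 to 6. Since the treatment behind each library is not known here, library and treatment cannot be told apart.

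**Figure D2:**
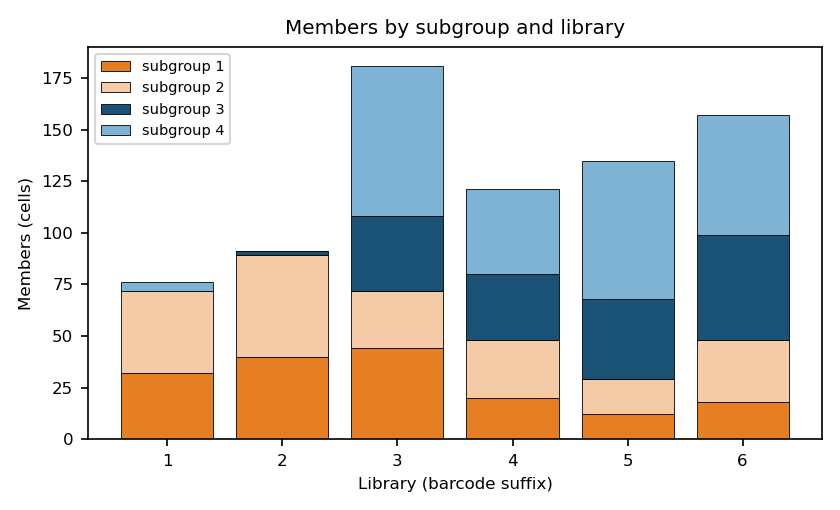
Number of members in each library (bars), stacked by subgroup. Subgroups 3 and 4, in blue, hold 6 cells in libraries 1 and 2 together and make up most of the members of libraries 3 to 6.

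Foxf1 and Tlx1 marked the opposite sides of this division. After thinning each cell to 10000 UMIs, which left out 3 members, Foxf1 had a UMI in 1.81% and 11.1% of cells of subgroups 1 and 2 and in 93.1% and 93.8% of subgroups 3 and 4. Tlx1 had one in 68.1% and 53.7% of subgroups 1 and 2 and in 0.625% and 0.413% of subgroups 3 and 4. Both genes were found together in 10 of 758 cells, Foxf1 alone in 390, Tlx1 alone in 207 and neither in 151. As a rough guide to free RNA, Foxf1 had a UMI in 2.04% of cells with endothelial markers and 2.39% of cells with heart muscle markers at that depth. Their median depths before thinning were 40591 and 43784 UMIs. Tlx1 had a UMI in 1.8% of the endothelial and 7.01% of the heart muscle cells. Foxf1 in subgroup 1, with an interval of 0.374% to 5.19%, could not be told from either value. Tlx1 in subgroups 3 and 4 lay below the heart muscle value. Their intervals, which reach 3.43% and 2.28%, include the endothelial value. The endothelial and heart muscle values for Tlx1 differ, so they set no background level for it.

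Across all members, levels were set against the other passing barcodes, weighted so that each library contributed as it did to the members. A gene was tested with at least 10 CPM on either side, and called when it differed 2-fold or more and in the same direction in all 6 libraries. Of 9216 tested genes, 169 were called higher in members (1.83%) and 394 lower (4.28%), with a median ratio over all tested genes of 1.09. Without the condition on libraries, 245 were at least 2-fold higher, of which 36 were higher in libraries 3 to 6 and in neither library 1 nor 2. In libraries 3 to 6 alone, 263 were called higher.

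The closest T-box relatives of Tbx4 were higher in members. Tbx5, a factor of the heart field and lung mesenchyme, was at 26.9, 36.9, 163, 147, 164 and 162 CPM in members of libraries 1 to 6 and at 16.1 to 21.2 CPM in the others. All 6 members' values exceeded all 6 of the other barcodes, and libraries 1 and 2 were far below the rest. The library-weighted ratio was 7.12 (6.88 to 7.37). Tbx2, a repressor that keeps mesenchyme growing, was at 104, 103, 94.3, 67.8, 69.4 and 74.0 CPM, a ratio of 3.87 (3.71 to 4.04). Tbx3, a related repressor, was at 59.0, 67.9, 77.7, 55.9, 72.6 and 55.7 CPM, a ratio of 3.2 (3.05 to 3.36). Unlike Tbx5, both were as high in libraries 1 and 2 as elsewhere. Of 6 tested T-box genes in a list without Tbx4, 3 were called higher and 3 lower: Tbx1, Tbx18 and Tbx20, with ratios of 0.316, 0.338 and 0.341. Among all tested genes, 1.83% were called higher and 4.28% lower.

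Foxf1 itself was not called, because its direction turned in library 2. It was at 27.4, 13.6, 180, 328, 364 and 350 CPM in members of libraries 1 to 6, against 16.7, 19.1, 27.9, 51.5, 67.2 and 45.9 CPM in the other barcodes. The library-weighted ratio of 5.91 (5.76 to 6.07) therefore came mainly from libraries 3 to 6, where it was 6.44. With equal weight for each library it was 3.56, and against only those barcodes that met the members' upper limits it was 3.41. In sums over cells, fewer positive cells and less RNA per cell cannot be told apart, but here the share could be counted. The share of members with at least 2 Foxf1 UMIs was 13.2%, 11%, 58.6%, 62.0%, 80.0% and 69.4% in libraries 1 to 6.

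**Figure D3:**
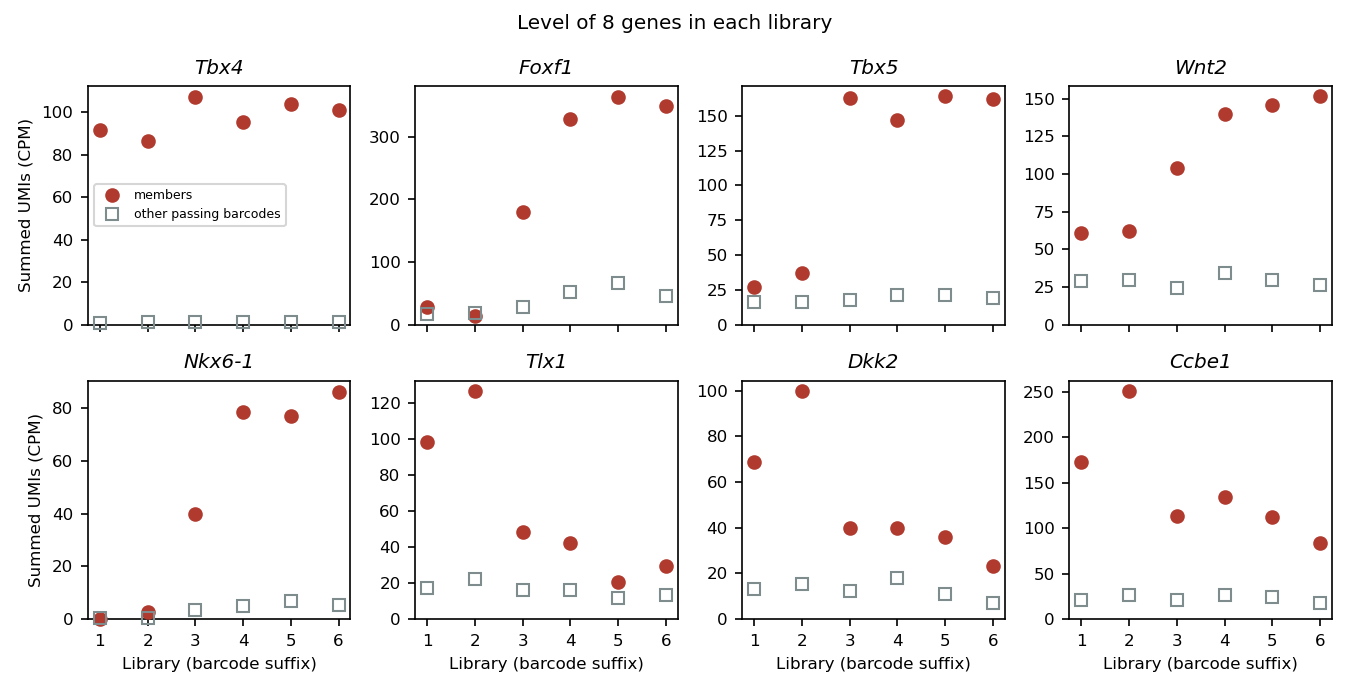
Level of 8 genes in CPM, from UMIs summed over members (filled circles) and over all other passing barcodes (open squares) of each library. Foxf1, Tbx5, Wnt2 and Nkx6-1 are lowest in members of libraries 1 and 2, while Tlx1, Dkk2 and Ccbe1 are highest there; Tbx4 chose the members.

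Genes of foregut and lung mesenchyme differed in how they varied by library. Of 19 tested genes on that list, Tbx4 left out, 6 were called higher (Tbx5, Tbx2, Tbx3, Wnt2, Bmp4 and Gata5) and 1 lower (Barx1), while 13 were at least 2-fold higher whatever the library pattern. The median ratio of the 19 was 3.2, beside 1.09 over all tested genes, of which 1.83% were called higher and 4.28% lower. Nkx6-1, a homeobox factor, was at 0, 2.66, 40.0, 78.6, 77.2 and 86.2 CPM. The other barcodes held it at 0.253 and 0.271 CPM in libraries 1 and 2 and at 3.62 to 6.89 CPM in libraries 3 to 6. Osr1, a zinc finger factor of early lung mesenchyme, was at 15.8, 3.99, 125, 145, 161 and 161 CPM. In the other barcodes it was at 10.3 and 9.24 CPM in libraries 1 and 2 and at 19.2 to 31.6 CPM in libraries 3 to 6. Zfpm2, a cofactor of GATA proteins, was at 44.1 and 83.8 CPM in libraries 1 and 2 and at 280 to 599 CPM in the others. Each of these 3 genes was high in the 4 libraries where subgroups 3 and 4 made up most members. Gata5 was at 38.3 to 63.4 CPM in the 6 libraries with no such gap, a ratio of 3.04 (2.87 to 3.21). Gata6 and Isl1, both heart field factors, were at 110 and 89.5 CPM, with ratios of 1.90 and 1.40, both under 2-fold. Barx1, a homeobox factor of stomach mesenchyme, was at 8.97 to 43.8 CPM in members and at 65.9 CPM in the others.

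Wnt genes were called in both directions. Of 21 tested ligands, receptors and modulators, 8 were called higher and 3 lower, with a median ratio of 1.93. Over all tested genes, 1.83% were called higher and 4.28% lower, with a median ratio of 1.09. Wnt2, the mesenchymal ligand, was at 60.7, 62.2, 104, 140, 146 and 152 CPM in members and at 24.0 to 33.9 CPM in the others. Members were higher in every library, and the ratio was 4.19 (4.04 to 4.34). Against barcodes within the members' upper limits it was 6.52. Dkk2 ran the other way, with 68.9, 99.8, 40.0, 39.8, 36.0 and 23.2 CPM, against 6.83 to 17.8 CPM in the others. Its ratio was 3.77 (3.55 to 3.99). Dkk1 was at 115, 202, 61.7, 69.6, 57.5 and 38.5 CPM, a ratio of 4.54 (4.34 to 4.75). The receptors Fzd1 and Fzd7 and the Wnt pathway genes Axin2, Lef1 and Nkd1 were called too, at ratios of 2.01, 2.31, 2.38, 2.96 and 3.95. Those called lower were the ligand Wnt6, the antagonist Frzb and the agonist Rspo3, at 0.0972, 0.213 and 0.218.

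Tlx1 was called higher in members. It was at 98.4, 127, 48.2, 42.5, 20.7 and 29.3 CPM in libraries 1 to 6, against 11.5 to 22.3 CPM in the others, a ratio of 3.38 (3.20 to 3.57). Library 5 came nearest to the other barcodes, which had 11.5 CPM there. Within the members' upper limits the ratio was 2.16. Of 2407 such barcodes with at least 2 Tlx1 UMIs, 265 were members (11%, 9.79% to 12.3%). Of all 17809 barcodes within these limits, 4.27% were members.

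Several Hedgehog targets were higher mainly in libraries 3 to 6. Hhip, a Hedgehog target that binds the ligand, was at 9.41, 8.98, 93.5, 125, 174 and 154 CPM, a ratio of 8.11 (7.81 to 8.43). It was called because libraries 1 and 2 lay just above the other barcodes there, at 9.09 and 8.78 CPM. Ptch1, the Hedgehog receptor, is also a target of the pathway. It was at 67.2 and 67.5 CPM in libraries 1 and 2 and at 151 to 251 CPM in libraries 3 to 6. Its library-weighted ratio was 1.86. Foxl1, a forkhead factor of gut mesenchyme, was at 0 CPM in libraries 1 and 2 and at 14.3 to 22.2 CPM in the others. Of 15 tested genes on a list of Hedgehog targets and transducers, 2 were called higher (Hhip and Bmp4), 7 were past 2-fold and 0 were called lower. Over all tested genes, 1.83% were called higher and 4.28% lower. The 16 genes of the whole list summed to 850 to 1593 CPM in members of the 6 libraries. The sum was 573 to 692 CPM in the others, with no overlap. It is not a level of targets alone. In subgroup 1 it was 855 CPM, with Hhip at 1.39 CPM, Foxl1 at 0.174 CPM and Ptch1 at 37.1 CPM.

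Among growth factors, Bmp5 was even across libraries, at 90.3 to 119 CPM in members, with a ratio of 5.46 (5.25 to 5.68). Bmp4 was at 76.2 to 127 CPM, a ratio of 2.14 (2.06 to 2.23). Of 14 tested BMP and TGF-beta genes, these and Msx1, a target of BMP signalling, were called higher, and the ligand Bmp2 lower. The shares over all tested genes were 1.83% higher and 4.28% lower. Fgf10, which drives budding of the lung, was at 12.4, 8.65, 27.5, 37.4, 67.2 and 67.7 CPM, a ratio of 3.72 that library 2 kept from being called. Fgf8, an epithelial ligand, and Spry1, an FGF feedback inhibitor, were called lower at 0.0429 and 0.324. Called higher were 0 of 9 tested FGF genes, which beside 1.83% of all tested genes is no result about them. Of 11 tested retinoic acid genes, Stra6, a retinol transporter, was called higher at 2.17 and Aldh1a1, a retinaldehyde dehydrogenase, lower at 0.0668. Aldh1a2, the main enzyme of the early embryo, was at 6.84 and 2.99 CPM in libraries 1 and 2 and at 37.5 to 80.1 CPM in the others.

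Hox RNA in members lay in paralogs 1 to 5. All 39 Hox genes together gave 391 CPM in members (384 to 399), at 244, 268, 394, 415, 495 and 426 CPM in libraries 1 to 6, against 135 to 280 CPM in the others. Members were higher in each library, and the ratio was 1.85 (1.81 to 1.89). Paralogs 1 to 3 gave 209 CPM in members and 139 CPM in the others. Paralogs 4 and 5 gave 180 CPM against 70.6 CPM. Paralogs 6 to 13 gave 2.25 CPM against 2.52 CPM. Of the 39 genes, 21 had a UMI in members, 7 reached 10 CPM and 18 had none, which allows each up to 0.121 CPM. Among those 18 were Hoxc10, Hoxd10, Hoxa11, Hoxd11 and Hoxd13, which mark limb mesenchyme.

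Among those 7 genes, the ratio to other cells was largest for Hoxa5 (4.94) and Hoxa4 (4.11), and both were low in libraries 1 and 2. Hoxa5, needed for normal lung and trachea, was at 1.71, 5.66, 45.8, 60.1, 83.5 and 68.0 CPM, against 4.30 to 19.8 CPM in the others. Hoxa4 was at 1.28, 4.32, 40.2, 51.2, 53.3 and 55.7 CPM, against 4.44 to 15.7 CPM. Neither was called, since both libraries with few Foxf1-positive members lay below the other barcodes. Hoxb4 was at 50.5, 52.2, 79.4, 66.5, 83.5 and 76.6 CPM, and was called with a ratio of 2.56 (2.44 to 2.68). Hoxb2 was level over libraries at 97.4 to 104 CPM, a ratio of 1.63, and Hoxb3 was at 30.5 to 64.5 CPM, a ratio of 1.95. Hoxa2 and Hoxa3 were at 30.7 and 17.8 CPM in members and 24.7 and 10.9 CPM in the others.

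Members were also split by their own Foxf1 count, a choice made after the values were seen. The 418 members with at least 2 Foxf1 UMIs held Hoxa5 at 84.0 CPM (79.3 to 88.9), and the 316 members with none held it at 2.73 CPM (1.8 to 3.97). Hoxa4 was at 66.4 and 2.63 CPM, and Hoxb4 at 94.0 and 40.0 CPM. Hoxb3 ran against this, at 35.1 and 58.5 CPM, and Hoxb2 was at 98.4 and 102 CPM, with overlapping intervals. Summed Hox RNA was 496 CPM (485 to 508) in the first and 246 CPM (236 to 256) in the second. Within libraries 3 to 6 the sums were 482, 509, 545 and 506 CPM with Foxf1, and 238, 243, 263 and 218 CPM without. Within libraries 1 and 2, where 10 members each held Foxf1, they were 237 and 288 CPM with it and 251 and 263 CPM without. The sum thus differed in libraries 3 to 6 and little in the first 2. Paralogs 4 and 5 alone were at 68.2 CPM with Foxf1 and 56.8 CPM without in library 1, and at 152 and 55.5 CPM in library 2. The 3781 barcodes with Foxf1 but no Tbx4 lay between the pooled sums, at 309 CPM, and cells with arch crest or mesothelial markers were at 253 and 291 CPM.

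**Figure D4:**
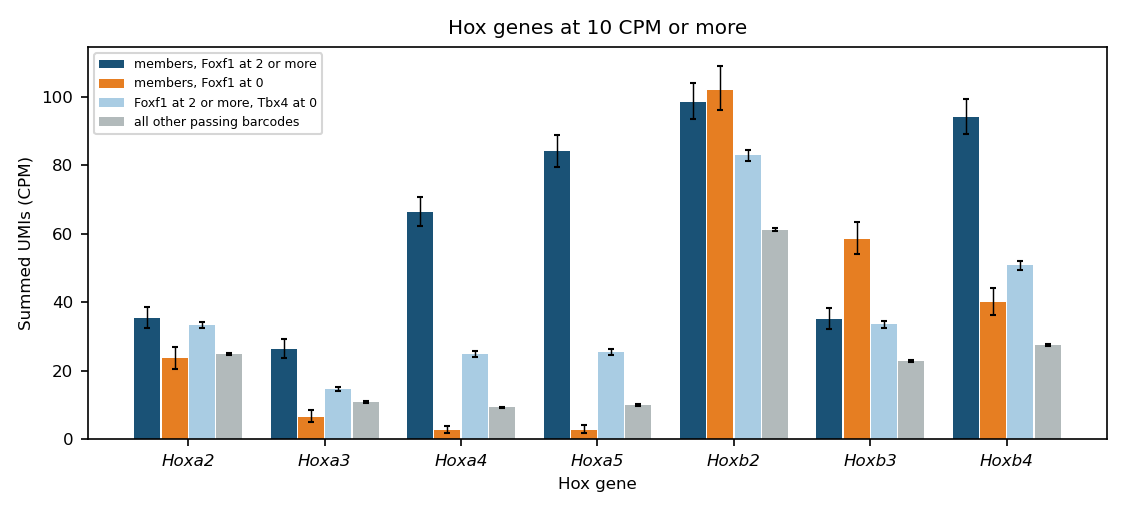
Level in CPM of the 7 Hox genes at 10 CPM or more in members, for members split by their Foxf1 UMIs, for Foxf1-positive barcodes without Tbx4 and for all other passing barcodes. Bars are summed UMIs with exact 95% Poisson intervals; Hoxa4 and Hoxa5 are at 66.4 and 84.0 CPM in members with Foxf1 and at 2.63 and 2.73 CPM in members without.

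Members with Foxf1 held more RNA of lung mesenchyme factors than Foxf1-positive cells without Tbx4. The 418 members were set against the 3781 barcodes, weighted by library. Levels were summed over all libraries, and a call needed the same direction in the 4 libraries with at least 20 such members, libraries 3 to 6. Of 9001 tested genes, 173 were called higher (1.92%) and 173 lower (1.92%), with a median ratio of 1.01. Of 22 tested foregut and lung mesenchyme genes, 12 were called higher, Tbx4 among them by the rule, and 1 lower. Tbx5 was at 207 CPM against 37.6 CPM, Wnt2 at 168 against 28.0 CPM, and Fgf10 at 59.7 against 14.6 CPM. Cxcl13, a chemokine, was at 536 CPM against 101 CPM, and Gata4 at 125 against 30.2 CPM. Hoxa5 was at 84.0 against 27.0 CPM. Each of these 6 was higher in 4 of 4 libraries.

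Ptch1, Osr1 and Fendrr differed less than 2-fold. Ptch1 was at 268 CPM in members with Foxf1 and 279 CPM in Foxf1-positive cells without Tbx4. Osr1 was at 201 against 107 CPM and Fendrr, a noncoding RNA beside Foxf1, at 89.4 against 50.7 CPM; both were higher in members in each of libraries 3 to 6. Fendrr and Foxf1 lie next to each other, and the counting was not stated to use strand in the sources used here. Called lower were Tbx1 (3.18 against 41.5 CPM), a factor of pharyngeal mesoderm, and Six2 (2.48 against 23.8 CPM), a homeobox factor. Barx1 was at 31.2 against 92.2 CPM, and the smooth muscle genes Acta2 and Tagln at 15.8 against 96.0 and 23.8 against 143 CPM.

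Subgroup 3 and subgroup 4 differed in named regulators. Their genes also shaped the clusters, so these levels describe them and test nothing. Subgroup 3 was led by Cav1, Csmd1, Vsnl1, Dcc, Slc24a2 and Crhbp. It held the GATA factor Gata4 at 277 CPM and its cofactor Zfpm2 at 1275 CPM, against 36.7 and 234 CPM in subgroup 4. Pde5a, which breaks down cyclic GMP, was at 540 and 171 CPM, and Tbx20, a cardiac T-box factor, at 56.6 and 5.81 CPM. Of the posterior second heart field markers counted in either subgroup, Gata4 was counted in subgroup 3 alone.

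Subgroup 4 was led by Mgp, Nrg1, Epha5, Ryr3 and Ndst4 and by hemoglobin genes, which made up 26.1% of the UMIs of 1 member of library 6. The matrix protein gene Mgp was at 95.3 CPM there and 6.77 CPM in subgroup 3, and the growth factor gene Nrg1 at 298 and 16.9 CPM. Fgf10 was at 88.8 and 27.1 CPM, and Cxcl13 at 798 and 226 CPM. Foxf1, at 417 and 426 CPM, and Tbx5, at 231 and 214 CPM, were close in both.

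**Figure D5:**
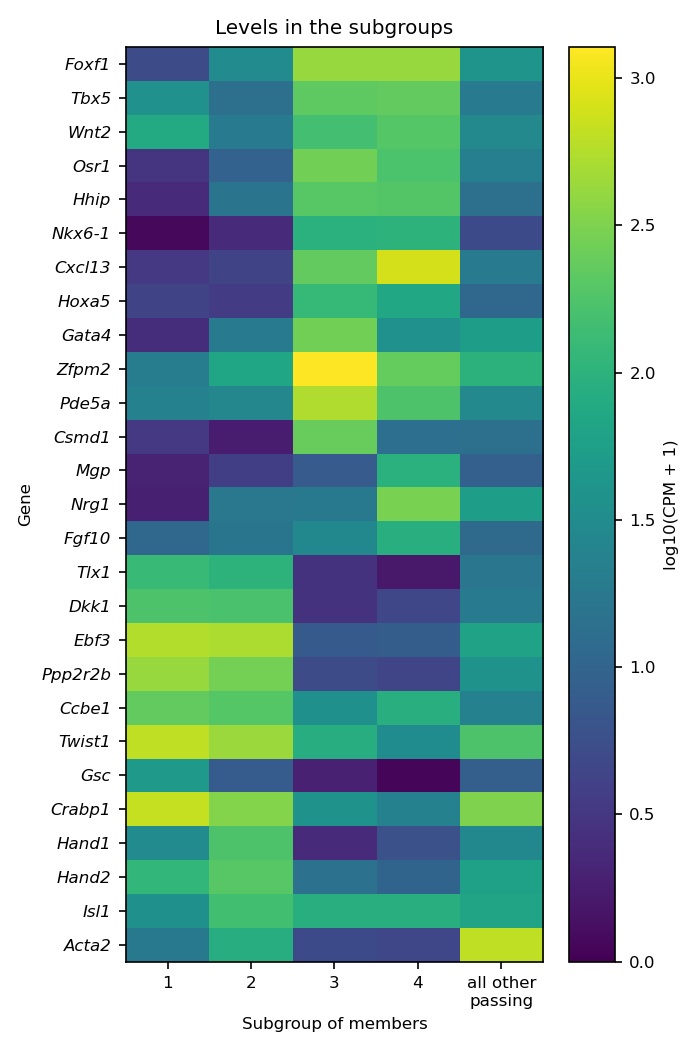
Level of named genes in the 4 subgroups of members and in all other passing barcodes (library-weighted), as log10(CPM + 1). Foxf1, Osr1, Hhip, Nkx6-1 and Hoxa5 are high in subgroups 3 and 4, and Tlx1, Dkk1, Ebf3, Ppp2r2b and Twist1 in subgroups 1 and 2.

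Subgroups 1 and 2 shared a set of genes that were lower in the Foxf1-rich subgroups. Ebf3, a helix-loop-helix factor, was at 552 and 526 CPM in subgroups 1 and 2 and at 6.58 and 7.17 CPM in subgroups 3 and 4. Dkk1 was at 174, 163, 1.88 and 3.58 CPM in the same order, and Ppp2r2b, a phosphatase subunit, at 428, 287, 4.32 and 3.46 CPM. Twist1, a mesenchymal helix-loop-helix factor abundant in crest, was at 643, 436, 85.5 and 31.4 CPM. Crabp1, which binds retinoic acid, was at 672, 341, 37.0 and 22.2 CPM. Hand2, a factor of heart field and arch mesenchyme, was at 113, 200, 13.5 and 8.90 CPM.

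The pair differed from each other as well. Subgroup 1 was led by genes such as Gsc, the agouti gene a, Slitrk5, Grm8 and Tnfaip6. Gsc, a homeobox factor of arch mesenchyme, was at 46.4 CPM there and 7.05 CPM in subgroup 2. Of 19 markers of arch crest mesenchyme, 6 passed the marker count in subgroup 1, among them Alx1, Msx1, Msx2 and Twist1. Subgroup 2 had 5 of these. Of the other genes on that list, Dlx1 and Dlx2 were kept low by the rule. Tfap2a and Tfap2b, crest factors that the rule did not count directly, had 1 and 0 UMIs in subgroup 1 and 7 and 0 in subgroup 2. Over all members Tfap2b had 1 UMI, a level of 0.0403 CPM against 18.2 CPM in the others. The others include the barcodes above the Dlx and Epcam limits, so the rule may have set part of this contrast. Subgroup 2 was led by Pf4, Pcp4l1, Tac2, Hand1, Dlg2 and Zfp804a, of which Pf4 came from 1.04% of its cells. Hand1 was at 174 CPM against 30.8 CPM in subgroup 1, Isl1 at 147 against 35.0 CPM, and the actin gene Acta2 at 84.6 against 16.9 CPM. Neither subgroup is given a cell type name.

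Members with and without Foxf1 also had genes in common. With the same condition on 4 libraries, 384 of 9141 tested genes were called higher in members with at least 2 Foxf1 UMIs (4.20%) and 337 lower (3.69%). Tbx2 was at 75.1 and 80.1 CPM, Tbx3 at 69.8 and 56.6 CPM, Bmp5 at 101 and 97.5 CPM and Gata6 at 108 and 113 CPM. Their ratios were 0.937, 1.23, 1.04 and 0.954, and none of these 4 genes was called. Wnt2 and Tbx5 were called, at 168 against 38.5 CPM and 207 against 28.2 CPM, and yet members without Foxf1 still lay above the 15.3 and 12.3 CPM of cells without Tbx4 in the same limits. Subgroup 2, at 17.6 CPM of Wnt2 and 12.9 CPM of Tbx5, was near those levels, and subgroup 1, at 78.6 and 36.2 CPM, was above them. Of 22 tested foregut and lung mesenchyme genes, 15 were called higher, Foxf1 among them by the split, and 1 lower. Of 12 tested posterior second heart field genes, 11 were called higher, again with Foxf1 among them, and 0 lower. The split thus did not separate these names.

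Of the genes called in all members, Kcnh5, a potassium channel, had the largest ratio after Tbx4, at 11 (9.87 to 12.3). Library 2 held it at 0.998 CPM and the others at 9.01 to 20.6 CPM. Several were highest in libraries 1 and 2, as the subgroup make-up was. Ccbe1, a secreted protein of lymphatic growth, was at 173, 251, 113, 134, 112 and 83.7 CPM, a ratio of 5.90 (5.70 to 6.11). The agouti gene a was at 115, 110, 87.0, 30.3, 30.7 and 19.6 CPM, a ratio of 6.5. Others were highest in libraries 3 to 6. Pde5a was at 21.4 and 23.0 CPM in libraries 1 and 2 and at 157 to 292 CPM in the others, a ratio of 6.63. Itga8, an integrin of mesenchyme, was at 19.7, 22.0, 107, 121, 144 and 115 CPM, a ratio of 4.75.

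The genes most like Tbx4 were ranked by the share of cells with a UMI in members over that in cells without Tbx4 within the same limits, at 10000 UMIs. Genes in at least 10% of members were ranked, a minimum added after the values were seen. Smpx led at 19.5% of 758 members and 1.61% of 15482 cells, and Nkx6-1 followed at 29.9% and 3.73%. Tbx5 had a UMI in 55.1% and 8.26%. The other 5 were Col19a1, Syt1, Sp5, Cxcl13 and Ryr2, with ratios of 7.09, 6.31, 5.90, 5.66 and 5.47. In every one of these 8 genes, members of libraries 1 and 2 lay below members of libraries 3 to 6. Cells with heart muscle markers are left out of that reference by the Tnnt2 limit. Among them, Tbx5 had a UMI in 41.8%. Smpx and Ryr2 are also expressed in heart muscle, and their level ratios against all other passing barcodes were 1.00 and 0.923.

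Genes of most other cell types were low, in part by the rule. All 14 cardiomyocyte genes were called lower, all 7 tested endoderm genes, 6 of 7 endothelial, 5 of 8 mesothelial and all 7 erythroid genes. The cardiomyocyte, endoderm and mesothelial counts include Tnnt2, Epcam and Wt1, which the rule limited. Cells of these 3 types were also kept out of the members but stayed among the others. Counts and sums for their lists were thus set in part by the rule. Over all tested genes, 1.83% were called higher and 4.28% lower. Against only the barcodes within the members' upper limits, 215 of 9098 tested genes were called higher and 290 lower. Summed cardiomyocyte RNA was 140 to 285 CPM in members of the 6 libraries and 5097 to 8488 CPM in the others. Summed endothelial RNA was 55.7 to 85.0 CPM against 161 to 321 CPM. For mesothelium the sums were 55.2 to 183 CPM against 163 to 291 CPM, with Msln at 0 in members. In subgroups 1 to 4 the mesothelial sum was 27.7, 63.1, 207 and 209 CPM, against 215 CPM in the others. It was thus low in subgroups 1 and 2 and near the others in subgroups 3 and 4. Neuronal RNA was 7.98 to 14.1 CPM against 42.2 to 101 CPM, with Neurod1 and Neurog1 at 0. Lists of branchiomeric muscle and limb mesenchyme were not low. The first summed to 144 CPM in members and 74.0 CPM in the others, with Tlx1 called higher and 0 of 4 tested genes lower, and with Myog at 0. The second summed to 251 and 196 CPM, with Msx1 called higher and Shox2 lower of 4 tested. Of 15 tested arch crest genes, 2 were called higher (Msx1 and Alx1) and 8 lower, Dlx1 and Dlx2 among them by the rule. The crest sum was 546 to 1401 CPM in members and 697 to 812 CPM in the others, and it was highest in subgroup 1, at 1550 CPM.

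Of 19 tested matrix genes, 3 were called higher and 4 lower, beside 1.83% and 4.28% of all tested genes. The higher ones were Col11a1, Tnc and Eln, with ratios of 2.93, 2.25 and 5.15. Basement membrane collagens Col4a1 and Col4a2, and Dcn and Col2a1, were called lower at 0.443, 0.396, 0.287 and 0.309. Of 17 tested guidance genes, Sema3a, Epha3 and Epha4 were called higher, at 2.15, 2.05 and 2.0. Slit3, a secreted guidance cue, was at 187 and 126 CPM in libraries 1 and 2 and at 598 to 721 CPM in the others, and was not called. Of 18 genes of S phase and 19 of G2 and M phase, 0 were called in either direction, and the median ratios were 1.03 and 1.21. Of 9 tested forkhead genes Foxp2 was called higher, and of 13 tested homeobox factors Pbx3 and Tlx1 were called higher and 4 lower, Six2, Barx1 and Nkx2-5 among them.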

How the data were processed

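Single-cell RNA was measured in 6 samples with the 10x Genomics 3′ kit; the sample descriptions speak of a chromatin assay, but every other label speaks of RNA. The authors deposited 1 matrix of whole-number UMI counts for 32285 genes; per the file headers, Cell Ranger 5.0.0 wrote it. The submitters' processing notes name mm10, CASAVA 1.8, Cell Ranger 5.0.0 and Seurat 4 without their roles. UMIs were summed over members and over other barcodes and divided by their total, times 1000000 (CPM). Ratios weighted the other barcodes by the members' UMIs in each library, and intervals are exact 95% Poisson intervals of the members' counts with the reference taken as fixed. Shares have exact Clopper-Pearson intervals. No test or p-value was used, since libraries could not be paired with samples.

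Members were clustered with scanpy 1.11.5 (counts scaled to 10000 per cell, 1500 variable genes, 15 components, 15 neighbours, Leiden resolution 0.5), without correction between libraries. The calling script was tested on simulated data. Doublets were not removed in the main values; removing the highest Scrublet scores, at 0.8% per 1000 barcodes, was an alternative. Named genes were Tbx4, Foxf1, Tlx1, Wnt2, Dkk2, Hox genes of at least 10 CPM, called genes with extreme ratios, the strongest and most abundant of each list, and subgroup leaders; others were chosen after their values were seen. Sex-linked and predicted genes were not ranked. Members and lists were chosen with earlier results of these data known. Some genes that met the rule are not reported here.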

Additional observations from a re-analysis of the deposited data

How the results depend on the processing

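The share of members moved with its definition, from 2.12% to 4.49% with at least 1 Tbx4 UMI, 1.16% with at least 3, 0.721% after thinning to 10000 UMIs, 1.75% with at least 1000 genes and 20% mitochondrial UMIs, and 2.31% with at least 4000 genes. It was 2.53% in libraries 3 to 6, and between 1.87% and 2.32% when single libraries were left out. Genes called higher numbered 169, and 55 at 3-fold and 263 in libraries 3 to 6, an alternative added after seeing the data; leaving out single libraries gave 154 to 191. Genes called lower numbered 394, and 628 at a minimum of 5 CPM, 227 at 20 CPM and 260 at 3-fold; the minimum changes how many genes are tested. The summed Hox ratio of 1.85 was 1.67 and 2.0 with at least 1 and 3 Tbx4 UMIs, 1.75 without shared barcode sequences, 1.79 with equal weight per library, 1.91 in libraries 3 to 6, 1.76 after thinning, and 1.70 to 1.91 without single libraries. Resolution 1.0 gave 13 subgroups in place of 4, and 0.3 gave 3. The cause of these shifts was not tested. No direction turned for these results or for the ratios of Foxf1, Tlx1, Wnt2 and Dkk2 over the libraries used. In that order, these ratios ranged from 3.41 to 6.45, 2.16 to 3.95, 3.62 to 6.52 and 3.00 to 4.21. Scrublet marked 23 of 761 members; without all marked barcodes 183 genes were called higher and 405 lower. Centring ratios on the median shift of 0.12 (log2) gave 130 and 435. Genes below 10 CPM on both sides were left untested in the main values by choice, and 3 UMIs over all members amount to 0.121 CPM.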
